A study of Mus musculus with 24 samples.

Results

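The nuclear-encoded subunits of the respiratory chain and of ATP synthase were followed across 8 groups of mouse heart tissue. Members were every gene on the array whose name belongs to the Ndufa, Ndufb, Ndufc, Ndufs or Ndufv series, to Sdha to Sdhd, to the Uqcr genes and Cyc1, to Cox4 through Cox8, or to the Atp5 genes. The names gave 81 genes, and 79 of these, among 11448 genes in all, had a probe well above background on every array of at least 1 group. By name they fell into complex I (35 genes), complex II (4), complex III (8), complex IV (16 of 18) and complex V, the ATP synthase (16). Cox4i2 and Cox8c, which code for isoforms of complex IV subunits, were above background on 0 of 24 arrays and are not described further. Some of the matching names are not subunits: Cox4nb is an older name of Emc8, Atp5s of Dmac2l, and Cox7a2l is now known as a supercomplex assembly factor. Ndufa4 is now counted with complex IV but is kept here under its name.

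Hearts came from mice labelled wild type (MuRF1+/+) or MuRF1 Tg+, all 12 to 16 weeks old, with 3 hearts per genotype and surgery. MuRF1 is a muscle ubiquitin ligase encoded by Trim63. Surgery was sham or I/R, short for ischemia-reperfusion: a tie around the left anterior descending coronary artery is closed and then released. Each heart gave 2 pieces, one from above and one from below the tie or the corresponding site of a sham heart, so that there were 12 hearts, 24 arrays and 8 groups of 3. Pieces of the same group and replicate number were taken as 1 heart, which the labels do not state outright. The sources used here do not give the promoter of the transgene or the time from reperfusion to harvest. The red dye (Cy5) marked heart RNA on every array and the green dye (Cy3) a common reference made of whole C57BL/6 pups at day 1, without a dye swap. A level is therefore the log2 ratio of heart to pup pool for that gene, and a change is a difference of 2 such levels. Each ± gives the fit's standard error except where SD is written, and adjusted p-values are from limma over all genes with Benjamini-Hochberg adjustment, with 0.05 as the threshold.

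Oxidative phosphorylation takes electrons from NADH at complex I and from succinate at complex II, passes them through ubiquinone, complex III and cytochrome c to oxygen at complex IV, and uses the proton gradient that builds up to make ATP at complex V. Complex II, succinate dehydrogenase, is also an enzyme of the tricarboxylic acid cycle and is the only complex with no subunit encoded in mitochondrial DNA. Heart muscle is among the tissues richest in these proteins and carries muscle isoforms of several complex IV subunits. Probes for the subunits encoded in mitochondrial DNA were not among the genes analysed here.

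The heart channel was weak on 5 of the 12 I/R arrays, where fewer than 25% of Cy5 spots were well above background. These were wild-type I/R above replicates 1 and 2 (24.2% and 15.7%), wild-type I/R below replicate 1 (9.9%), and Tg+ I/R below replicates 2 and 3 (13.5% and 20.1%). Sham arrays lay between 34.6% and 43.3%, and the 3 Tg+ I/R above arrays between 29.2% and 37.9%. Spread among the members was larger after I/R: the median SD over 12 arrays was 0.50 on the log2 scale after I/R and 0.15 after sham, against 0.20 and 0.10 over all genes. Ventricular cardiomyocyte markers (12 of 12 measured) had a mean log2 ratio of 3.22 to 3.85 on sham arrays and 2.83 to 3.88 on I/R arrays, so all pieces held heart muscle. Trim63 itself gave a log2 difference of 0.03 ± 0.39 (above) and -0.07 ± 0.39 (below) between sham hearts labelled Tg+ and wild type, with an adjusted p of 1 in each case. Its probe does not mark the genotype here, and the sources do not say whether it lies in the transgene, so genotype rests on the labels.

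In wild-type sham hearts, 76 of the 79 members had a log2 ratio above 0, with a median of 1.67. Over all kept genes 54.8% were above 0, and the median was 0.05. Medians by complex were 1.77 for complex I, 1.44 for complex II, 1.66 for complex III, 1.31 for complex IV and 1.63 for complex V. In complex I the ratios ran from 0.73 ± 0.07 (SD, n = 6) for Ndufc2, an accessory subunit of the membrane arm, to 2.70 ± 0.20 for Ndufs6, an accessory subunit of the peripheral arm. In complex II they ran from 1.21 ± 0.10 for Sdhd to 1.84 ± 0.17 for Sdhb, in complex III from 1.28 ± 0.16 for Uqcrh to 2.33 ± 0.25 for Uqcrq, and in complex V from 0.83 ± 0.11 for Atp5d to 2.34 ± 0.06 for Atp5j. Because the reference is a whole pup and the dyes were not swapped, these ratios describe the arrays and were not tested.

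**Figure D1:**
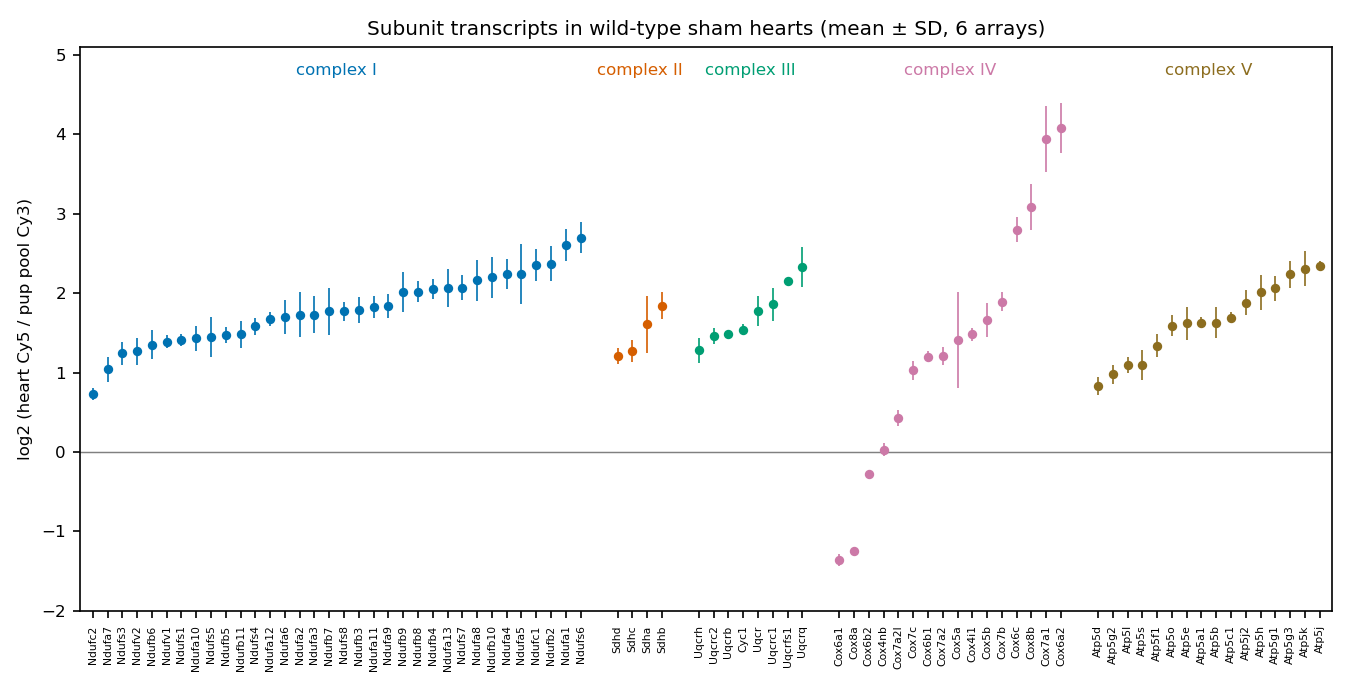
Log2 ratio of heart to pup pool (vertical axis) for members in wild-type sham hearts, ordered within complexes I to V; points are means and bars SDs of 6 arrays (both pieces of 3 hearts). Complex IV has both the highest value (Cox6a2, 4.08) and the lowest (Cox6a1, -1.36).

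Complex IV spanned the widest range, and its isoforms separated. Cox6a2, Cox7a1 and Cox8b, the isoforms of heart and skeletal muscle, stood at 4.08 ± 0.32, 3.94 ± 0.42 and 3.08 ± 0.29 (SD, n = 6, and n = 5 for Cox8b, which lacks 1 spot). Their ubiquitous counterparts Cox6a1, Cox7a2 and Cox8a stood at -1.36 ± 0.08, 1.21 ± 0.11 and -1.25 ± 0.04. All wild-type sham arrays of a muscle isoform lay above all those of its counterpart: Cox8b ran from 2.61 to 3.41 and Cox8a from -1.29 to -1.17, and Cox7a1 from 3.41 to 4.39 and Cox7a2 from 1.08 to 1.40. Cox6b2, the testis isoform, was at -0.28 ± 0.04 and Cox6b1, its ubiquitous counterpart, at 1.20 ± 0.07. Cox5a, which is not an isoform but a partner of Cox5b, gave 0.19 on wild-type sham below replicate 1 and 1.58 to 1.77 on the other wild-type sham arrays. Cox4i1 was at 1.48 ± 0.08, Cox6c at 2.80 ± 0.16, Cox7b at 1.89 ± 0.12, Cox7c at 1.03 ± 0.12, and Cox7a2l, now known as a supercomplex assembly factor, at 0.43 ± 0.10. Of the 3 genes for the c subunit of ATP synthase, Atp5g1 and Atp5g3 were at 2.06 ± 0.16 and 2.24 ± 0.17, and Atp5g2 at 0.98 ± 0.12.

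Promoter sequences are shown for the muscle and ubiquitous members of the Cox7a and Cox8 pairs, since these had the largest contrast in level for which RefSeq held both promoters. Each run is the 250 bases before the RefSeq start (GRCm38.p6, most upstream start, 5′ to 3′ on the gene's strand). Capitals mark letters of the motifs searched on both strands.

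Cox7a1 (chr7:30183921-30184170, plus strand): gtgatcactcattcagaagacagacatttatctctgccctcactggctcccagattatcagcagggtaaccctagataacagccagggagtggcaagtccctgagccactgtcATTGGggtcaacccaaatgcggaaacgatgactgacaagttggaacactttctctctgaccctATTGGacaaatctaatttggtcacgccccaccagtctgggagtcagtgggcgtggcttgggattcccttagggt

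Cox7a2 (chr9:79759854-79760103, minus strand): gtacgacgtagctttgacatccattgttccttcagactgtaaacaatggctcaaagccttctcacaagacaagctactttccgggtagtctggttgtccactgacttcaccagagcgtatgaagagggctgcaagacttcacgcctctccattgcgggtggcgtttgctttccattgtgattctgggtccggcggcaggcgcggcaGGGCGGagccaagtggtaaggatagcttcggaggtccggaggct

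Cox8b (chr7:140900447-140900696, minus strand): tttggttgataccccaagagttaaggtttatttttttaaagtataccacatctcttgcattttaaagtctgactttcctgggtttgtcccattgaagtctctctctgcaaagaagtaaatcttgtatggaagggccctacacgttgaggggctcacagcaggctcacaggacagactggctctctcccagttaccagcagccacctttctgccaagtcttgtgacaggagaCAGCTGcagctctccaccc

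Cox8a (chr19:7217617-7217866, minus strand): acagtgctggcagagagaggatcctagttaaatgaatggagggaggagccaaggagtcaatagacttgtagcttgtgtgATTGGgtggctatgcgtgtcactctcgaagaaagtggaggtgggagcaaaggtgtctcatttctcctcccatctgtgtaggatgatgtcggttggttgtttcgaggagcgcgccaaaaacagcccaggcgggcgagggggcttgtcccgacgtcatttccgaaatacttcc

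The muscle isoforms Cox7a1 and Cox8b had 4 and 1 CpG dinucleotides in this window, and the ubiquitous Cox7a2 and Cox8a had 14 and 11. Base composition differed less, with 51.2% and 47.2% G or C in Cox7a1 and Cox8b, and 54.8% and 52.8% in Cox7a2 and Cox8a. A promoter was found for 65 of the 79 members. Their median was 14 CpG and 56% G or C, against 6 CpG and 52% over 27018 promoters of the same length. The ETS motif CCGGAAG stood in 16.9% of member promoters and 7.07% of all promoters, and the NRF-1 core GCGCATGC in 12.3% and 2.31%. The ERR half-site AAGGTCA stood in 7.69% and 4.05%, CCAAT in 41.5% and 34.5%, and the GC box GGGCGG in 33.8% and 33%. The E-box CAGCTG stood in 9.23% and 12.7%, and TATAAA in 7.69% and 13%. The YY1 motif AAGATGGC and the MEF2 motif matched in 0 of the 65, against 1.58% and 3.02% of all promoters. These are matches of letters and not binding sites.

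After I/R the complex II transcripts and a set of complex I transcripts fell. Over hearts, each the mean of its 2 pieces (6 I/R against 6 sham), 19 of 79 members fell (24.1%) and 20 rose (25.3%). Of all genes, 25.5% fell and 25.5% rose, so the members as a family changed about as often as genes in general. The alternatives did not test falls and rises equally, because several of them lowered the members as a whole. Under median centring 0 of the 79 were positive, with Agilent's ratio 22 and with the Cy5 channel alone 25. A fall could hardly turn positive on those scales. All 19 falls kept a negative sign under each of 12 alternative analyses, and 16 to 19 of them still passed. The 20 rises were all negative under median centring of each array, 15 of 20 stayed positive with Agilent's own ratio, where 1 passed, and 16 of 20 with the Cy5 channel alone, where 3 passed. Without the weak arrays, on the same loess scale, 12 of the 20 rises stayed positive and 4 passed. Median centring moved the median of all genes by -0.26 to -0.51 in the comparisons of I/R with sham in each piece, and the members' medians to between -0.87 and -2.17. A rise named in what follows is a rise of the loess-normalized ratio, and its sign depends on that scaling and on the weak arrays. Leaving out wild-type I/R heart 3 gave 63 changed members, 44 of them higher. The count of higher members was 11 without wild-type sham heart 3 and 12 without Tg+ I/R heart 2. The count of lower members was 18 to 20 whichever heart was left out.

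Within a genotype and a piece (3 arrays against 3), few members passed except in Tg+ tissue below the tie. In wild-type tissue above it 1 member rose and 3 fell, while 5.98% of all genes rose and 7.3% fell. In wild-type tissue below it 0 rose and 1 fell (all genes 2.15% and 3.45%), with 9 members at an unadjusted p under 0.05 (share of all genes not given). In Tg+ tissue above it 0 rose and 2 fell (all genes 6.94% and 8.41%). In Tg+ tissue below it 4 rose and 21 fell, which is 5.06% and 26.6% of the members, against 15.3% and 17.1% of all genes. These counts rested on single arrays. In Tg+ tissue below the tie 15 members passed when I/R replicate 2 was left out (0 higher) and 38 when I/R replicate 1 was (15 higher). In wild-type tissue above it 17 passed without I/R replicate 3, the only array of that group that was not weak, 13 of them higher. In wild-type tissue below it 0 passed without sham replicate 1 and 2 without I/R replicate 3. In Tg+ tissue above it 0 passed without sham replicate 1 or 3 or I/R replicate 2 or 3, 1 without sham replicate 2, and 3 without I/R replicate 1.

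A slide held only 1 sham and 1 I/R array of the same genotype and piece in each comparison. With slide as a block, 7 of the 25 calls in Tg+ tissue below the tie were left, all lower, and 0 in the other comparisons.

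**Figure D2:**
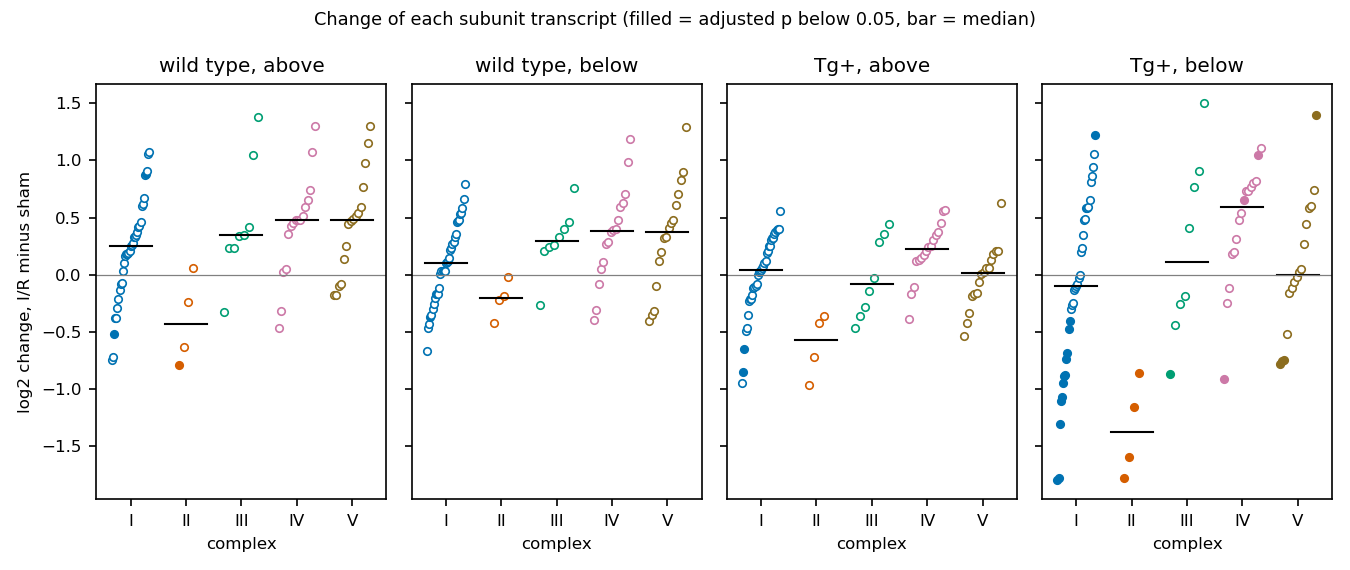
Log2 change from sham to I/R (vertical axis) of each member in complexes I to V (horizontal axis), with 1 panel per genotype and piece. Filled points passed an adjusted p of 0.05 and bars are medians. With all arrays the complex II median is the lowest in every panel (-0.44, -0.21, -0.57 and -1.38). Without the weak arrays it was -0.02 in wild-type tissue below the tie, the highest of complexes I to V there.

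All 4 complex II genes fell over hearts and in Tg+ tissue below the tie, where 25.5% and 17.1% of all genes fell. In wild-type tissue only Sdhc above the tie passed. Sdha codes for the flavoprotein that oxidises succinate, Sdhb for the iron-sulfur subunit that passes the electrons on, and Sdhc and Sdhd for the membrane anchors that bind ubiquinone. The sequences before the RefSeq start of Sdha, Sdhb and Sdhd are given because these genes fell over hearts. Ndufa10 of complex I is given for comparison, and the form is the same as above.

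Sdha (chr13:74350241-74350490, minus strand): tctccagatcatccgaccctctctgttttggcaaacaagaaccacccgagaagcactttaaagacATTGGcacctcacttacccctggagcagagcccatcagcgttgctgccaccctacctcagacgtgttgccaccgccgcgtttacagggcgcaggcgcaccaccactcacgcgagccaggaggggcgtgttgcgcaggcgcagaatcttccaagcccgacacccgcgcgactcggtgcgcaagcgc

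Sdhb (chr4:140961021-140961270, plus strand): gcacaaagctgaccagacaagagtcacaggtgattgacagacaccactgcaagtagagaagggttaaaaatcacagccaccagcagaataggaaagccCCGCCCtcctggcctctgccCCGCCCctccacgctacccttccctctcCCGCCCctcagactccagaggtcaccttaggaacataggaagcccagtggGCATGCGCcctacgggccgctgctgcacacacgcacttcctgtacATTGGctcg

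Sdhd (chr9:50603850-50604099, minus strand): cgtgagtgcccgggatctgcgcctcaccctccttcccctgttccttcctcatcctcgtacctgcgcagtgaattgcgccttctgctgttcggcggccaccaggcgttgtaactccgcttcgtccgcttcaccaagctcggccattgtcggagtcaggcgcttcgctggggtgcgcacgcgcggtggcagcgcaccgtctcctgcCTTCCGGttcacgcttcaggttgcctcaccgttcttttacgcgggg

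Ndufa10 (chr1:92473759-92474008, minus strand): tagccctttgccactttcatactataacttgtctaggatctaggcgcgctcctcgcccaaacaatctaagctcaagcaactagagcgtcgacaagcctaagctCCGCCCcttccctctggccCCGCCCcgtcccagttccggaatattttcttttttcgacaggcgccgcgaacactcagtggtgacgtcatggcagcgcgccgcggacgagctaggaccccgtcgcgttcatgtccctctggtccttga

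None of the searched motifs stood in all 4. Sdha held 1 CCAAT box 185 bases before the start. Sdhb held 1 NRF-1 core 54 bases before it, 1 CCAAT box at 9 bases, and GC boxes at 152, 132 and 104 bases. Sdhd held 1 ETS motif at 46 bases, and Ndufa10 GC boxes at 147 and 128 bases. No motif overlapped another in these windows.

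Sdhb had a log2 ratio of 2.04, 1.87 and 1.88 in the Tg+ sham arrays below the site, and 1.29, -0.20 and -0.64 in the Tg+ I/R arrays below the tie, replicates 1 to 3. The groups did not overlap, and the weak replicates 2 and 3 were the lowest. The change was -1.78 ± 0.32 (adjusted p = 0.000822). In Tg+ tissue above the tie, with no weak array, Sdhb stood at 1.52, 1.39 and 1.11 against 2.22, 1.85 and 2.12 after sham, a change of -0.72 ± 0.32 that did not pass (adjusted p = 0.131). In wild-type tissue it was 0.06 ± 0.32 above and -0.02 ± 0.32 below.

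Sdha had 1.73, 1.72 and 1.70 in Tg+ sham tissue below the site and 1.13, -0.26 and -0.53 after I/R, and fell by 1.60 on the log2 scale (SE 0.36, adjusted p = 0.00356). On 1 of the 24 arrays its spot was not well above background. A second probe for Sdha changed by -1.55 in the same comparison. Above the tie in Tg+ hearts Sdha was at 1.54, 0.76 and 0.77 against 2.13, 1.69 and 2.16, a change of -0.97 ± 0.36 with an adjusted p of 0.0716.

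Sdhc had 1.30, 1.30 and 1.23 in Tg+ sham tissue below the site and 0.64, -0.19 and -0.11 after I/R, a change of -1.16 ± 0.18 (adjusted p = 0.000274). It also fell in wild-type tissue above the tie, from 1.13, 1.35 and 1.46 to 0.39, 0.52 and 0.67 (change -0.79 ± 0.18, adjusted p = 0.00847), with no overlap between the groups. Sdhd had 1.17, 1.26 and 1.26 after sham and 0.80, 0.29 and 0.03 after I/R in Tg+ tissue below, a change of -0.86 ± 0.14 (adjusted p = 0.000322). Over hearts the falls were -0.85 ± 0.21 for Sdha, -0.62 ± 0.17 for Sdhb, -0.70 ± 0.10 for Sdhc and -0.42 ± 0.07 for Sdhd (adjusted p 0.00759, 0.0102, 0.000339 and 0.000681). For Sdhc the 6 I/R hearts ran from 0.31 to 0.83 and the 6 sham hearts from 1.16 to 1.41, and Sdhd likewise did not overlap.

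**Figure D3:**
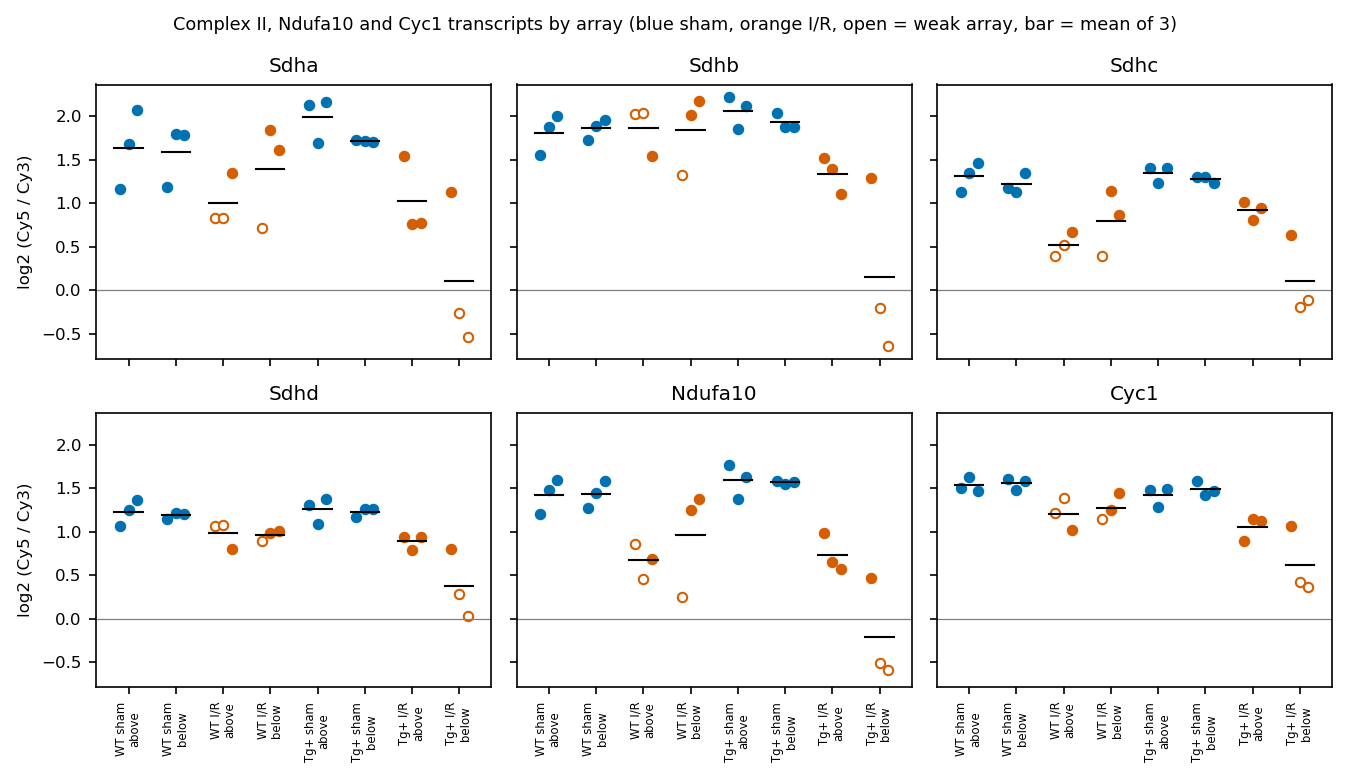
Log2 ratio of heart to pup pool on each array (vertical axis) for the 4 complex II genes, Ndufa10 of complex I and Cyc1 of complex III, in the 8 groups. Open circles are weak arrays and bars group means. The Tg+ I/R below arrays are the lowest group for each gene, and 2 of their 3 points are weak arrays.

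The fall of complex II was smaller on the arrays with a stronger heart channel. Without the 5 weak arrays the Tg+ I/R below group has 1 array left, which the fit assumes to vary like the other groups. On that basis Sdhb changed by -0.63, Sdha by -0.59, Sdhc by -0.63 and Sdhd by -0.43, and all but Sdha passed. In Tg+ tissue above the tie, which keeps its 3 arrays, the changes of -0.97, -0.72, -0.42 and -0.36 for Sdha, Sdhb, Sdhc and Sdhd all passed in that fit. On slide 4, which held 1 Tg+ sham and 1 Tg+ I/R array from below the site, Sdhb differed by -2.07 and Sdha by -1.96. That I/R array was replicate 2, a weak array (13.5%), so this difference does not come from a strong heart channel. With slide as a block Sdhc and Sdhd passed in Tg+ tissue below (-1.19 and -0.80, adjusted p 0.0442 and 0.0385), and Sdhb and Sdha missed the threshold (-1.69 and -1.56, adjusted p 0.0525 and 0.0895). Bulk tissue cannot separate fewer cells of a type from less RNA per cell.

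Complex I held members that fell and members that rose. Over hearts 10 of 35 fell and 9 rose, close to the 25.5% of all genes in each direction. In Tg+ tissue below the tie 12 fell and 1 rose, against 17.1% and 15.3% of all genes. The members that fell there included Ndufa10, an accessory subunit of the membrane arm, Ndufs1 and Ndufs8, core subunits with iron-sulfur clusters, and Ndufv2 of the NADH-binding module. Ndufa10 had 1.58, 1.55 and 1.57 in Tg+ sham tissue below the site and 0.47, -0.51 and -0.59 after I/R, a change of -1.78 ± 0.26 (adjusted p = 0.000157). All 3 I/R arrays lay below all sham arrays. Ndufs8 changed by -1.31 ± 0.24, Ndufs1 by -1.11 ± 0.21, Ndufb5 by -1.07 ± 0.20 and Ndufv2 by -0.95 ± 0.23 in this comparison. Ndufa6, Ndufa11, Ndufb6, Ndufc2, Ndufs6 and Ndufs7 fell by between 0.41 and 0.89 on the log2 scale.

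Ndufa10 fell in Tg+ tissue above the tie as well (-0.85 ± 0.26, adjusted p = 0.0321), as did Ndufb5 (-0.65 ± 0.20, adjusted p = 0.0356). Its I/R values there were 0.99, 0.65 and 0.57, against 1.77, 1.37 and 1.63 after sham. In wild-type tissue above the tie Ndufa10 stood at 0.86, 0.46 and 0.69 against 1.20, 1.48 and 1.59, and the change of -0.75 ± 0.26 missed the threshold (adjusted p = 0.0586). Over hearts Ndufa10 fell by 0.96 on the log2 scale (SE 0.13, adjusted p = 0.000231). The I/R hearts ran from -0.01 to 1.03 for Ndufa10 and the sham hearts from 1.23 to 1.68.

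Ndufc2, with the lowest ratio to the pup pool in complex I, moved little but evenly. The 6 I/R hearts had log2 ratios of 0.25 to 0.37 and the 6 sham hearts 0.67 to 0.76, a change of -0.39 ± 0.04 that had the smallest p of any member (adjusted p = 4.06e-05). It fell in wild-type tissue above (-0.38 ± 0.08) and below the tie (-0.37 ± 0.08) and in Tg+ tissue below it (-0.74 ± 0.08), with adjusted p-values of 0.00402, 0.00941 and 9.39e-06. Tg+ tissue above the tie gave 0.56, 0.69 and 0.47 against 0.62, 0.61 and 0.72 for Ndufc2, and those groups overlapped. Ndufa6 also fell in wild-type tissue above the tie (-0.52 ± 0.13, adjusted p = 0.015).

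The complex I members by name that rose were Ndufa1, Ndufa4, Ndufa7, Ndufa13, Ndufb4, Ndufb9, Ndufb10, Ndufb11 and Ndufs5 over hearts, by 0.40 to 0.74 on the log2 scale. All are accessory subunits of complex I except Ndufa4, which is now counted with complex IV. Ndufa13 and Ndufb10 rested on 10 hearts and Ndufb9 on 11. Ndufa13 and Ndufb10 lacked wild-type I/R heart 3, the only wild-type I/R heart with no weak array. Ndufb9 rose by 1.22 ± 0.41 in Tg+ tissue below the tie (adjusted p = 0.0302), from 1.86, 1.92 and 1.94 to 2.70, 3.62 and 3.06. Ndufa7 rose in wild-type tissue above the tie, from 1.15, 1.13 and 0.87 to 2.30, 2.29 and 1.21 (change 0.88 ± 0.23, adjusted p = 0.0184). The 2 highest Ndufa7 values were the weak arrays. Under median centring these changes were -1.51 for Ndufb9 and -0.74 for Ndufa7.

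In complex III, Cyc1, the heme protein that hands electrons to cytochrome c, was the only 1 of 8 members that fell over hearts. Of the 8, 2 rose, and of all genes 25.5% changed in each direction. Over hearts Cyc1 ran from 0.74 to 1.32 after I/R (median 1.08) and from 1.35 to 1.55 after sham (median 1.53), a change of -0.46 ± 0.05 (adjusted p = 0.000112). Below the tie in Tg+ hearts it went from 1.58, 1.42 and 1.47 to 1.07, 0.42 and 0.36 (change -0.87 ± 0.14, adjusted p = 0.000426). Uqcrh, the hinge protein beside cytochrome c1, rose over hearts by 1.05 ± 0.24 and Uqcr by 0.75 ± 0.18 (adjusted p 0.0057 and 0.00709, 11 hearts each because of a missing spot). For Uqcr the heart left out was wild-type I/R heart 3, the only wild-type I/R heart with no weak array. Uqcrc1 and Uqcrc2, the core proteins, changed by 0.23 ± 0.14 and -0.01 ± 0.11, and Uqcrfs1, the Rieske iron-sulfur protein, by -0.06 ± 0.10, none of which passed. Under median centring, where no member was positive, Uqcrh was at -1.33 and Uqcr at -1.39. Cyc1 was negative under all 12 alternatives.

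Complex IV had the highest median change of the complexes in Tg+ tissue on the loess scale (0.22 above and 0.60 below the tie). Over hearts 8 of 16 members rose and 2 fell, against 25.5% of all genes in each direction. Cox7a1 rose by 0.99 ± 0.29, Cox6a1 by 0.74 ± 0.14, Cox4i1 by 0.67 ± 0.12 (10 hearts), Cox6c by 0.59 ± 0.19 (11 hearts), Cox7b by 0.56 ± 0.19, Cox8a by 0.49 ± 0.11, Cox6a2 by 0.38 ± 0.14 and Cox7c by 0.26 ± 0.10. Both the muscle isoform Cox6a2 and the ubiquitous Cox6a1 are in this list. Cox4i1 lacked a spot in wild-type I/R heart 3, the only wild-type I/R heart with no weak array. Of the other isoform pairs, Cox7a2 and Cox8b changed by 0.47 ± 0.19 and 0.42 ± 0.24 and did not pass (adjusted p 0.054 and 0.158). Cox6a1 in Tg+ tissue below the tie went from -1.28, -1.47 and -1.25 to -0.87, 0.42 and -0.42, and Cox8a from -1.27, -1.29 and -1.19 to -0.86, -0.13 and -0.80. Those changes of 1.05 ± 0.32 and 0.65 ± 0.23 passed (adjusted p 0.0181 and 0.0374), and each was highest on a weak array, replicate 2. They turned to -1.81 and -1.77 under median centring, and Cox6a1 was at -0.18 with the Cy5 channel alone.

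The complex IV members by name that fell were Cox6b1, which faces the intermembrane space, and the assembly factor Cox7a2l. Cox6b1 fell by 0.47 on the log2 scale over hearts (SE 0.10, adjusted p = 0.00286) and by 0.91 in Tg+ tissue below the tie (SE 0.23, adjusted p = 0.00653). Its I/R hearts ran from 0.41 to 0.98 and its sham hearts from 1.05 to 1.28. Cox7a2l fell by 0.26 over hearts (SE 0.06, adjusted p = 0.00497). Cox5a and Cox5b changed by 0.28 ± 0.22 and 0.38 ± 0.17 and did not pass, nor did Cox6b2 (0.14 ± 0.07) or Cox4nb (0.06 ± 0.05), which had the smallest SD of all members over the I/R arrays (0.11).

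In complex V, with 16 members, Atp5l and Atp5s fell over hearts and Atp5e rose, against 25.5% of all genes in each direction. Atp5l, the g subunit of the membrane part, changed by -0.37 ± 0.07 over hearts and by -0.76 ± 0.19 in Tg+ tissue below the tie (adjusted p 0.00158 and 0.00744). Atp5s, a factor rather than a subunit, changed by -0.39 ± 0.09 and -0.75 ± 0.19, and Atp5f1, the b subunit of the peripheral stalk, fell in Tg+ tissue below the tie (-0.78 ± 0.28, adjusted p = 0.037) but did not pass over hearts (-0.17 ± 0.12). Atp5e, the epsilon subunit of the catalytic head, went from 1.38, 1.42 and 1.28 to 1.86, 3.21 and 3.21 there (change 1.40 ± 0.42, adjusted p = 0.0209), with its highest values on the weak arrays. Over 8 hearts with both spots Atp5e rose by 1.19 ± 0.24, and under median centring the values were -1.38 and -1.20. Wild-type I/R hearts 2 and 3 were not among those 8 hearts. The c subunit genes Atp5g1, Atp5g2 and Atp5g3 changed by -0.02 ± 0.10, 0.30 ± 0.12 and 0.35 ± 0.19 over hearts, and the alpha, beta and gamma subunit genes Atp5a1, Atp5b and Atp5c1 by 0.19 ± 0.17, 0.56 ± 0.23 and 0.53 ± 0.22. None of these 6 passed. Atp5g3 had the largest SD of all members over the 12 I/R arrays (1.07), against 0.15 over the sham arrays.

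The members that fell lay mostly among those with dim probes. Across the 79 members the change in Tg+ tissue below the tie had a Spearman correlation of 0.72 with mean Cy5 signal. It was 0.75 and 0.82 in wild-type tissue above and below, and 0.49 in Tg+ tissue above. Over all genes the same correlations lay between -0.09 and -0.01. They are descriptions across genes that share arrays. Below the tie in Tg+ hearts 17 of the 26 dimmest members fell and 1 rose, and of the 27 brightest 0 fell and 2 rose. The G and C content of the probe gave correlations of -0.11 to 0.15 with the change. The part of signal strength in the falls was not tested.

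**Figure D4:**
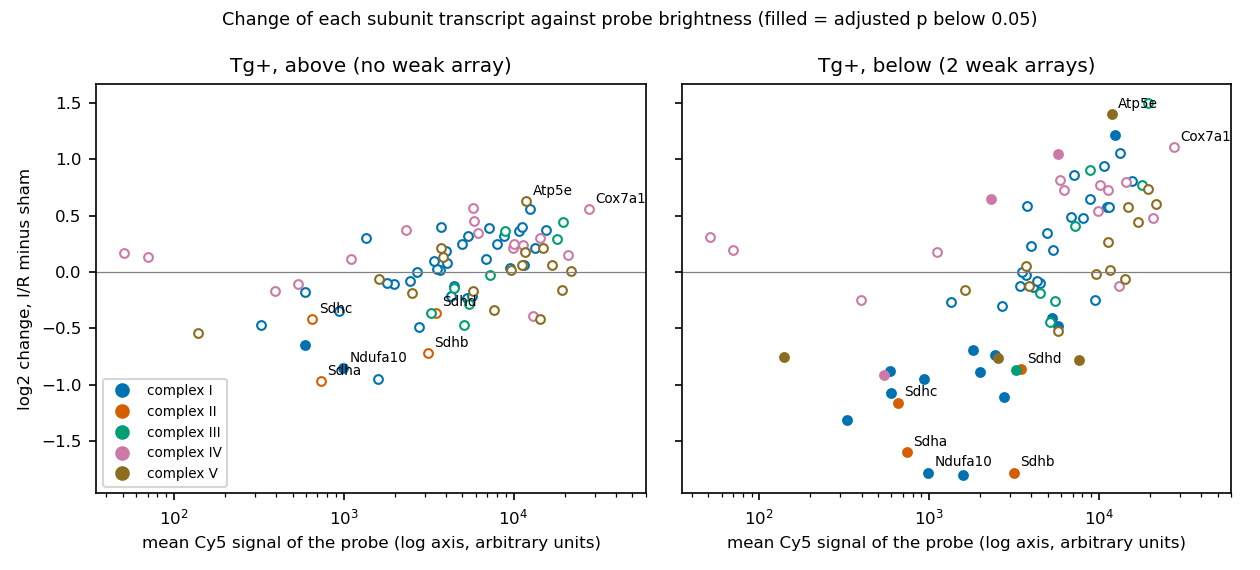
Log2 change from sham to I/R (vertical axis) against mean Cy5 signal of the probe (log axis) for the 79 members in Tg+ tissue above the tie, which has no weak array, and below it. Colours are complexes and filled points passed; dim members lie lower and bright members higher in both panels (Spearman 0.49 and 0.72).

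Probes of the same gene sometimes moved in opposite directions. Atp5b had a bright probe nearest its 3′ end that changed by 0.77, 0.90, -0.16 and 0.74 in wild-type above, wild-type below, Tg+ above and Tg+ below tissue. Its dimmer probes further 5′ changed by -0.80, -0.55, -1.35 and -2.38, and by -0.92, -0.36, -1.23 and -1.75. For Ndufa7 the brightest probe, at the 3′ end, gave 0.88, 0.54, 0.40 and 0.59, and the other gave 0.28, -0.04, -0.11 and -0.54. Ndufc1 and Uqcrc1 also had probes of opposite sign in Tg+ tissue below the tie, with 0.49 against -0.52 and 0.41 against -0.68. The 2 probes for Ndufa11 gave -0.88 and -0.86 there, and the 3 for Ndufs6 gave -0.48, -0.49 and -0.74. Taking the probe farthest from the 3′ end of each gene left 20 of the 21 falls in Tg+ tissue below the tie. Of these 21 members only Sdha, Atp5f1, Atp5s, Ndufa11 and Ndufs6 had a further probe. The exchange of probes could not change the values of the others, so it says nothing about probe position for them. Over 2752 genes with probes at least 200 bases apart, the change of the 5′ probe was lower than that of the 3′ probe in 48% to 58.6% of genes, depending on the comparison. The part of probe position or RNA quality in these differences was not tested.

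**Figure D5:**
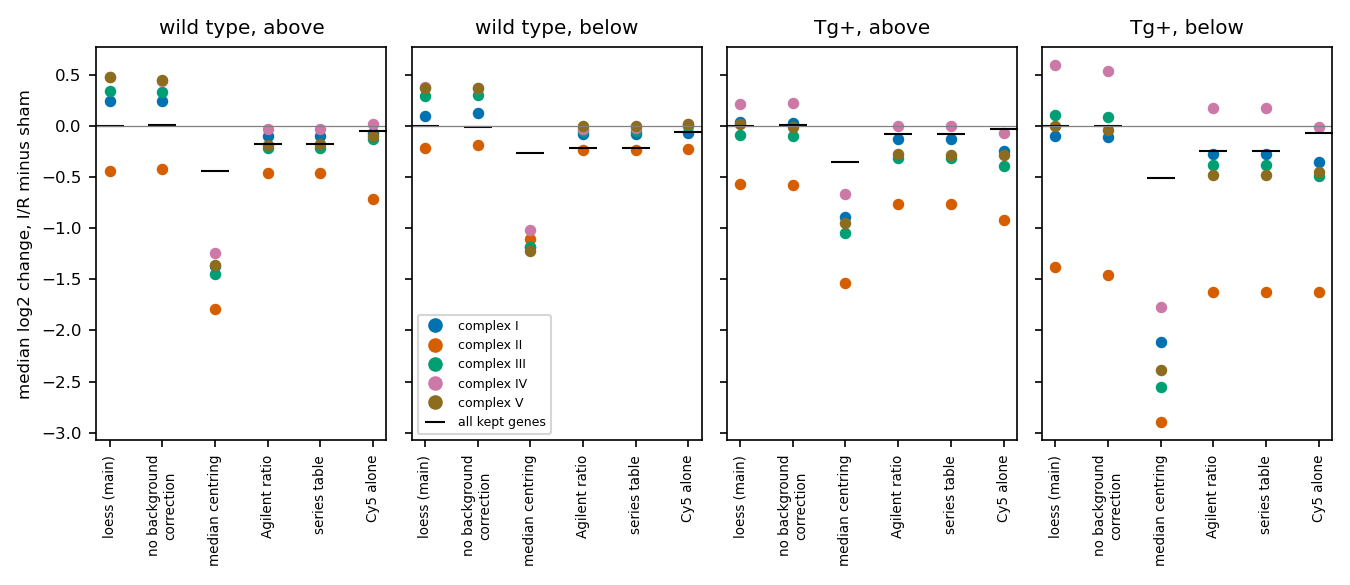
Median log2 change from sham to I/R (vertical axis) of complexes I to V and of all kept genes under 6 ways of scaling the arrays (horizontal axis), by genotype and piece. Complex II is the lowest complex in wild-type above, Tg+ above and Tg+ below tissue under each scaling shown, but not in wild-type tissue below under median centring (-1.10 against -1.22 for complex V), and the order of the other complexes and the sign of their medians vary.

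The medians of complexes II and IV moved with the scaling. In Tg+ tissue below the tie the complex II median was -1.38 on the loess scale, -1.62 with Agilent's ratio (all genes -0.24), -1.62 with the Cy5 channel alone (-0.07) and -2.90 under median centring (-0.51). In Tg+ tissue above it the values were -0.57, -0.76 (-0.08), -0.92 (-0.03) and -1.54 (-0.35). Complex IV, at 0.60 in Tg+ tissue below on the loess scale, was at 0.18, -0.01 and -1.77 under the same alternatives. Without the weak arrays 14 members fell and 2 rose in Tg+ tissue below (all genes 6.72% and 6.81%), and 16 fell and 11 rose in Tg+ tissue above (19.6% and 22%). In wild-type tissue 13 fell and 2 rose above the tie (5.52% and 7.39%), where, as in Tg+ tissue below, the I/R group then has 1 array that is assumed to vary like the other groups, and 2 fell and 0 rose below it (6.66% and 5.15%). Ndufa10 and Sdhc were among the members that fell without the weak arrays in wild-type above, Tg+ above and Tg+ below tissue.

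Genes of the related lists moved mostly in the direction of complex II. Of 6 genes for complex I assembly 5 fell over hearts and 0 rose, led by Ndufaf1 (-0.72 ± 0.08), which helps build the membrane arm. One of the 5, Ndufab1 (-0.44 ± 0.08), the acyl carrier protein, is itself an accessory subunit that the naming rule does not take in. Both Bcs1l, which inserts the Rieske protein into complex III, and Ttc19 fell (-0.59 ± 0.07 and -0.36 ± 0.08), and 9 of 11 genes for complex IV assembly fell, among them Lrpprc (-0.88 ± 0.15), which stabilises mitochondrial mRNAs, and Higd1a (-0.60 ± 0.05). Of 7 coenzyme Q synthesis genes 6 fell, among them Coq9 (-0.83 ± 0.18) and Coq7 (-0.58 ± 0.08). In the ATP synthase assembly and substrate supply list 4 of 11 fell, among them Slc25a3, the mitochondrial phosphate carrier (-1.11 ± 0.21), and Tmem70 (-0.61 ± 0.07). Of 7 electron carriers and dehydrogenases that reduce ubiquinone 2 fell, Dhodh and Sqrdl, and Etfb rose (0.67 ± 0.20). Medians of these lists were -0.45, -0.48, -0.32, -0.46, -0.19 and -0.17 in that order, against 0 over all genes on the loess scale. They stayed negative under every scaling tried. All genes were lower on some scales too, at -0.40 under median centring and -0.19 with Agilent's ratio. The sign alone does not set the lists apart there. The background for these counts is again 25.5% of genes in each direction.

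Regulators of respiratory gene expression also fell: 10 of 14 over hearts, with 1 rise (Pprc1, 0.15 ± 0.05), against 25.5% of all genes in each direction. Ppargc1b, a coactivator of the estrogen-related receptors, fell in each genotype and piece, by -1.05 ± 0.10 and -0.83 ± 0.10 in wild-type tissue above and below the tie and by -0.71 ± 0.10 and -0.76 ± 0.10 in Tg+ tissue. It kept an adjusted p of 0.00851 to 0.0239 with slide as a block. Ppara, the fatty acid receptor, fell in each of them too, from -0.50 ± 0.13 to -0.80 ± 0.13. Over hearts Ppargc1a fell by 0.50 (SE 0.14), Esrra by 0.37 (SE 0.11), Esrrb by 0.56 (SE 0.11) and Esrrg by 0.43 (SE 0.11). Ventricular cardiomyocyte markers, which share cells with the members, were mixed: 5 of 12 fell, among them Ckm (-0.83 ± 0.08), Fhl2 (-0.92 ± 0.09) and Pln (-1.37 ± 0.34), and Mb and Tnnt2 rose (1.07 ± 0.23 and 0.46 ± 0.14). In Tg+ tissue below the tie 5 of 12 fell, and the list's mean log2 ratio was 2.83 to 3.42, against 3.67 to 3.85 after sham.

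Markers of other cells moved with surgery as well, where 25.5% of all genes changed in each direction over hearts. All 5 measured neutrophil markers rose over hearts, S100a9 by 4.19 ± 0.37, and their mean log2 ratio was -1.86 to -1.58 on sham and -0.77 to 0.51 on I/R arrays. Of 11 macrophage markers 6 rose, of 12 fibroblast markers 9, of 7 atrial markers 6, of 5 adipocyte markers 5, of 4 epicardial markers 3, and 0 fell in these lists. The counts cover only genes kept by the background filter, which a gene can pass through an I/R group alone. Listed genes that did not pass it include Csf3r, Il8rb, Mmp9, Plin, Lep, Retn, Upk3b, Upk1b and Tbx18. Of 11 endothelial markers 1 rose and 3 fell, of 9 smooth muscle and pericyte markers 3 and 4, and of 5 erythroid markers 2 and 2. Mean log2 ratios on sham and on I/R arrays were -0.36 to -0.07 and -0.09 to 0.49 for macrophage markers, -2.05 to -1.57 and -2.22 to -0.54 for fibroblast markers, and -1.37 to 1.18 and -1.19 to 3.04 for atrial markers. The part of a changed mix of cells in the falls of the members was not tested.

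Genotype was compared within each surgery and piece, by label. In sham hearts 0 of 79 members differed between Tg+ and wild type above or below the site with limma. Of all genes 0.0349% and 0.0262% differed at the same adjusted threshold. Unadjusted p was under 0.05 for 1 and 0 members, with the share of all genes not given. The member with the smallest p above the site was Ndufs7 (-0.28 ± 0.13), and below it Cox4nb (-0.15 ± 0.09), each with an adjusted p of 1. Medians of the members were -0.14 and -0.08, with 14 and 17 of 79 positive; under median centring 77 and 1 were positive, so no direction is given. In I/R tissue above the tie 0 differed, against 0.655% of all genes at the adjusted threshold. Unadjusted p was under 0.05 for 20 members, again with the share of all genes not given. Ndufb5 (-0.73 ± 0.20), Atp5g1 (-0.79 ± 0.22) and Uqcrfs1 (-0.81 ± 0.23) had the smallest p (adjusted p 0.101 to 0.112). The count past the adjusted threshold became 11 without wild-type I/R above replicate 3.

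In I/R tissue below the tie 10 members were lower in Tg+ than in wild type and 0 higher, against 1.71% and 1.22% of all genes. They were Sdhb, Sdhc and Sdhd of complex II, Ndufa6, Ndufa10, Ndufc2, Ndufs1, Ndufs8 and Ndufv2 of complex I, and Cyc1. Sdhb stood at 1.29, -0.20 and -0.64 in Tg+ and at 1.33, 2.01 and 2.17 in wild type, replicates 1 to 3, a difference of -1.68 ± 0.32 (adjusted p = 0.0178). The groups did not overlap. For Ndufa10 the Tg+ values were 0.47, -0.51 and -0.59 and the wild-type values 0.25, 1.25 and 1.37, and these groups overlapped (-1.17 ± 0.26, adjusted p = 0.0281). The count depended on the arrays: 0 passed without wild-type replicate 2 or without Tg+ replicate 2 or 3, 1 without wild-type replicate 3, 38 without wild-type replicate 1, and 23 without Tg+ replicate 1. Without the weak arrays 4 were lower (Sdhb, Ndufa10, Ndufs8 and Cox6b1) and 0 higher, against 3.07% and 4.68% of all genes, and with slide as a block 0 passed.

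The test of whether I/R changed the members differently in the 2 genotypes gave no call. Over hearts 0 of 79 passed, against 0.0175% of all genes at the same adjusted threshold. Within tissue above or below the tie 0 passed as well, against 0.0175% of all genes in each at the adjusted threshold. Unadjusted p was under 0.05 for 5 and 17 members, with the share of all genes not given. Sdhb had a difference between the genotypes' changes of -1.27 ± 0.33 over hearts (adjusted p = 0.259) and of -1.75 ± 0.46 below the tie (adjusted p = 0.286). Leaving out Tg+ I/R heart 1 gave 8 calls over hearts, and leaving out wild-type I/R heart 3 gave 6. The larger falls in Tg+ tissue below the tie are thus not shown to differ from those in wild type.

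Pieces of the same heart were compared within it. In sham hearts 0 members differed between tissue below and above the site with limma, also 0 at an unadjusted p under 0.05, and 0% of all genes passed. In I/R hearts 0 passed, while 0.253% of all genes passed. Unadjusted p was under 0.05 for 10 members, with the share of all genes not given. None of the 4 complex II genes passed: below minus above, Sdhb was at -0.61 ± 0.19 in I/R hearts (adjusted p = 0.272) and the other 3 at -0.26 to -0.27. All 4 were also below 0 in sham hearts, at -0.03 to -0.17. Atp5e had the smallest p, at 0.61 ± 0.11 (adjusted p = 0.118), in a fit of 8 hearts with both spots, sham hearts included. Of the I/R hearts only wild-type heart 1 and Tg+ hearts 1 and 3 had both Atp5e spots. Leaving out wild-type I/R heart 2 gave 22 calls, 20 of them higher below the tie, and leaving out wild-type I/R heart 1 or 3 or Tg+ I/R heart 1 gave 1. The test of whether the difference between pieces changed with surgery gave 0 members and 0% of all genes. It gave 2 members without wild-type I/R heart 2. Unadjusted p was under 0.05 for 4 members, with the share of all genes not given.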

How the data were processed

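Each of 24 two-colour Agilent arrays (7 slides) carried amplified RNA, made from 50 ng of total RNA per the labels' protocols. The deposited scanner files hold spot intensities and a log10 ratio of red over green made by Feature Extraction 9.5.3.1, per the file headers, with its background subtraction and dye normalization. The deposited series table holds log2 ratios, which correlated 0.986 to 0.999 with that ratio and so have the direction of heart over pup pool; the sources do not give how the authors centred them. One protocol sentence names Cy3 for heart RNA, but the label and source fields, which were followed, name Cy5.

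Mean intensities were corrected with normexp (offset 50) and loess-normalized within arrays; control spots had weight 0 in loess, and spots flagged as outliers were dropped (22 missing values in 14 members). No value was imputed. The probe with the brightest Cy5 signal stood for each gene name, if some group had it well above background on each of its arrays (15427 of 41174 probes, 11448 of 27962 gene names).

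Tests used limma 3.58.1 in R 4.3.3 (lmFit, eBayes, Benjamini-Hochberg over all kept genes, threshold 0.05), with 8 group means over 24 arrays (16 residual degrees of freedom), or per heart over 12 hearts (8 residual degrees of freedom), using the mean of the 2 pieces or their difference. Replicate number was used to join pieces to hearts. P-values measure the spread between these samples. The fits were tested on simulated data.

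The members and gene lists were chosen with earlier results of these data known. Named genes were the marker members, the isoforms, the 6 largest increases and decreases past the threshold in each comparison, the smallest p per complex, the extremes of level and spread, non-subunits, up to 4 genes per related list, and Trim63; further members are named to account for the counts, and were chosen after their values were seen. Alternatives were other backgrounds, scalings, filters, probes, blocks, weights and left-out arrays. The fit over 24 arrays in place of hearts, the probe farthest from the 3′ end, the single complex II values without weak arrays, and the genotype by surgery tests per piece were added after seeing the data. Values of 1 member are not reported here. Promoters and symbols came from RefSeq (GRCm38.p6); 77 members matched by accession and 2 by name.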

Additional observations from a re-analysis of the deposited data

How the results depend on the processing

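The 19 falls over hearts and the 21 falls in Tg+ tissue below the tie stayed negative under each of 12 and 13 processing alternatives. Several of these lowered the members as a whole and could hardly turn a fall. The count of members past the threshold moved with the processing, and the cause was not tested. The counts with the settings used in the report were 4, 1, 2 and 25 for I/R against sham in wild type above, wild type below, Tg+ above and Tg+ below, 39 over hearts, and 10 for Tg+ against wild type in I/R tissue below. In that order of the first 4, median centring gave 0, 0, 0 and 51, Agilent's ratio 2, 0, 6 and 31, the deposited log2 values 2, 0, 6 and 31, the Cy5 channel alone 11, 0, 10 and 37, slide as a block 0, 0, 0 and 7, array weights 38, 3, 30 and 56, only the arrays compared 9, 0, 21 and 35, and leaving out the weak arrays 15, 2, 27 and 16. In Tg+ tissue above, no filter on dim probes gave 0, and the mean of all probes and the probe farthest from the 3′ end gave 4 each. Over hearts median centring gave 77, array weights 67 and the 24 arrays 47. For Tg+ against wild type in I/R tissue below, median centring, slide as a block and only the arrays compared gave 0, Agilent's ratio 30, the deposited log2 values 31, Cy5 alone 27, no filter on dim probes 3, array weights 53 and no weak arrays 4. In I/R tissue above that comparison gave 1 with Cy5 alone and 17 with array weights, and in sham tissue above 5 with array weights. Array weights gave 26 for genotype by surgery over hearts and 6 for below against above in I/R hearts, where leaving out the weak arrays gave 5; for surgery by piece it gave 1.

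Signs that turned under median centring were Ndufa7 in wild type above (-0.74), Atp5e (-1.38), Ndufb9 (-1.51), Cox6a1 (-1.81) and Cox8a (-1.77) in Tg+ below, and Atp5e (-1.20), Uqcrh (-1.33), Cox7a1 (-0.88), Uqcr (-1.39), Ndufa13 (-1.26) and Ndufb9 (-0.63) over hearts; Cox6a1 in Tg+ below was -0.18 with Cy5 alone.

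Leaving out 1 array gave 3 to 17, 0 to 2, 0 to 3 and 15 to 38 for I/R against sham in the order above, 0 to 11 and 0 to 38 for Tg+ against wild type in I/R tissue above and below, and 0 in sham tissue. Leaving out 1 heart gave 30 to 63 over hearts, 0 to 8 for genotype by surgery, 0 to 22 for below against above in I/R hearts and 0 in sham hearts, and 0 to 2 for surgery by piece. The arrays and hearts behind these ranges are named in the report. With the heart as a block in the fits over arrays the counts were 4, 1, 2 and 25 for I/R against sham. The same block gave 10 for Tg+ against wild type in I/R tissue below. Over hearts, with replicate number as a block, the count was 36. The pairing check over hearts gave correlations of -0.73 to 0.54 between the deviations of the 2 pieces, so the numbers were not shown to pair the samples. Weak heart signal on 5 of 12 I/R arrays limits the precision of the I/R groups. Values on those arrays also differed in level. On the weak wild-type I/R arrays the complex V median was 2.18 to 3.29, against 1.63 to 1.78 on the others. The complex II median there was 0.81 to 0.96 against 1.08 to 1.49. In Tg+ I/R tissue below, complex V stood at 2.01 and 1.61 on the weak arrays and 1.78 on the other. Complex II stood at -0.19 and -0.32 against 0.97.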
